A study of Rattus norvegicus with 8 samples.

Results

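Collagen chain genes were taken as all genes whose symbol on the array reads Col, a type number, a and a chain number, so that members were chosen by name and not by any measured value. Of 18166 genes measured by a probe set with 1 gene symbol, 36 met this rule through 37 probe sets, and Col5a1 alone had more than 1. The array was an Affymetrix whole-transcript microarray, hybridised with RNA of kidney from male Wistar rats that were 10 weeks old. The groups were 4 arrays of medulla and 4 arrays of cortex. Every array of both groups carries the same treatment label, ethylene glycol every day with vitamin D on alternate days for 1 week, a regimen known for crystal formation in the tubules. No untreated or single-agent group was analysed here. No label ties an array to an animal. The p-values therefore reflect the scatter among these 8 arrays, and the labels do not say how much of it is technical. Replicate numbers follow accession order and name arrays only, and the labels do not say whether any medulla array shares an animal with a cortex array.

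Collagens are proteins whose chains wind into triple helices, and most are secreted into the extracellular matrix. Fibrillar types such as I and III form the rope-like fibrils of interstitial scar, type IV chains form the sheet of the basement membrane under tubules, vessels and glomeruli, and type VI forms beaded filaments around cells. In kidney, the chains encoded by Col4a1 and Col4a2 are found in most basement membranes. The chains of Col4a3, Col4a4 and Col4a5 make up the mature glomerular basement membrane and part of the tubular one, and their loss causes Alport syndrome in humans. By class, the members were 11 fibrillar genes, 5 of type IV, 3 of type VI, 7 of fibril-associated collagens, which decorate fibrils, 2 multiplexins, 3 of types VIII and X, 3 transmembrane collagens, Col7a1 of anchoring fibrils, and Col26a1. The rat RefSeq table of assembly GRCr8 lists 44 genes of this name form, and all 36 members matched it by Entrez identifier. The other 8, which include Col4a6 and Col6a1, were not analysed here.

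Type IV genes lie head to head in the genome, and the sequences between their starts are shown because the paired genes are described together below. Col4a1 occupies chr16:84885597-84996482 on the plus strand and Col4a2 chr16:84749672-84885520 on the minus strand, with 76 bases between their RefSeq starts in GRCr8. Col4a3 lies at chr9:91323990-91453088 on the plus strand and Col4a4 at chr9:91281324-91323577 on the minus strand, with 412 bases between them. The first line below is the whole spacer chr16:84885521-84885596 on the plus strand, and the second is the 250 bases before the start of Col4a3, chr9:91323740-91323989, on the plus strand. The third is the 250 bases before the start of Col1a2, chr4:33518307-33518556, on the plus strand, shown as a fibrillar gene that is not part of such a pair.
Col4a1-Col4a2 spacer: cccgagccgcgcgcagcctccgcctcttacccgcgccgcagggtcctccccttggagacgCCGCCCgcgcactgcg
Col4a3 upstream: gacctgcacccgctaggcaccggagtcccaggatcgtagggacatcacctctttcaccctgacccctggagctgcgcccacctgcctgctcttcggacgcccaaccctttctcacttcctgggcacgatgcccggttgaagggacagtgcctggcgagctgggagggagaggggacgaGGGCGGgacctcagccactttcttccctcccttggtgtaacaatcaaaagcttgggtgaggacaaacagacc
Col1a2 upstream: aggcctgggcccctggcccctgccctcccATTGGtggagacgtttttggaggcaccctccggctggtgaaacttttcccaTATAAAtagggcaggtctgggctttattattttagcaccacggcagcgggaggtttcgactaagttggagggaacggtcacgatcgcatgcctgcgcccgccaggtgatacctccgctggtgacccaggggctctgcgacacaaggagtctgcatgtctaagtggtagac
Capitals mark matches on either strand to the GC box GGGCGG, the CCAAT box CCAAT and the TATA box TATAAA, and no 2 of these motifs overlap each other in the printed runs. The 76-base spacer held 1 GC box. Over the full 250 bases before the start, Col4a1 and Col4a2 held a GC box and a CCAAT box, Col4a3 held a GC box, Col4a4 held none of the motifs, and Col1a2 held a CCAAT box and a TATA box. Promoters in the RefSeq table matched 30 members, of which 18 had a GC box, 8 a CCAAT box and 4 a TATA box in the 250 bases before the start. Over 27457 rat promoters of that length the shares were 32.4%, 34.3% and 13.1%. A match describes letters in the window and says nothing about binding.

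Median intensity per array ran from 34.1 to 34.7 units, or from 5.09 to 5.12 on the log2 scale used from here on. Precision is limited by having 4 arrays per region. Both replicate 4 arrays stood apart from the rest of their region: 691 genes differed at least 2-fold between medulla arrays and 654 between cortex arrays, against 170 without medulla replicate 4 and 145 without cortex replicate 4. The tubular injury gene Havcr1 measured 4.54, 4.80, 8.95 and 11.32 on medulla replicates 1 to 4 and 4.59, 5.15, 7.54 and 11.27 on cortex replicates 1 to 4. The ranges of collagen genes that rest on these arrays are given with and without them. The tissue labels were set against kidney markers. Umod, made by the thick ascending limb, measured 10.54 to 11.80 in medulla and 10.73 to 11.89 in cortex. Slc14a2, the urea transporter of the inner medulla, measured 6.15 to 7.42 in medulla and 4.80 to 5.88 in cortex, with no overlap. Marker lists separated the regions less. The 6 collecting duct markers, Slc14a2 among them, had summed intensities of 788.8 to 2862 in medulla and 741.0 to 1501 in cortex. For the 7 proximal tubule markers the sums were 5988 to 7390 in medulla and 6505 to 8766 in cortex, which also overlap.

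Medulla was compared with cortex to ask whether any collagen chain was expressed more in 1 region. No collagen gene was called. limma with Benjamini-Hochberg adjustment over all 18166 genes, at an adjusted p of 0.05 and a 2-fold difference, called 0 of 36 collagen genes and 0 genes in all (0.0% of those tested). At an unadjusted p under 0.05 it passed 0 collagen genes, against 2.77% of all genes higher in medulla and 2.58% lower. All 36 members overlapped between the regions, whereas 1.1% of all genes lay wholly higher in medulla and 1.74% wholly lower. The difference was positive in 23 of 36 members, against 45.8% of all genes, with a median of 0.04 log2 units over the members and -0.01 over all genes. Without medulla replicate 4 the median of the members was -0.010 and 17 of 36 were positive, and without medulla replicate 1 or 2 it was 0.0040 or 0.013, with 19 of 36 positive each time. The other left-out arrays gave medians of 0.026 to 0.068 and 20 to 26 positive members. By class it was positive in 9 of 11 fibrillar genes, 5 of 5 type IV genes, 2 of 3 type VI genes, 3 of 7 fibril-associated genes, both multiplexins and 0 of 3 transmembrane genes. It exceeded 2 standard errors in 0 members and ran from -0.16 for Col6a6 to 0.54 for Col15a1. The smallest adjusted p of a member was 0.876. In bulk tissue, more cells of a type and more RNA per cell cannot be told apart.

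**Figure D1:**
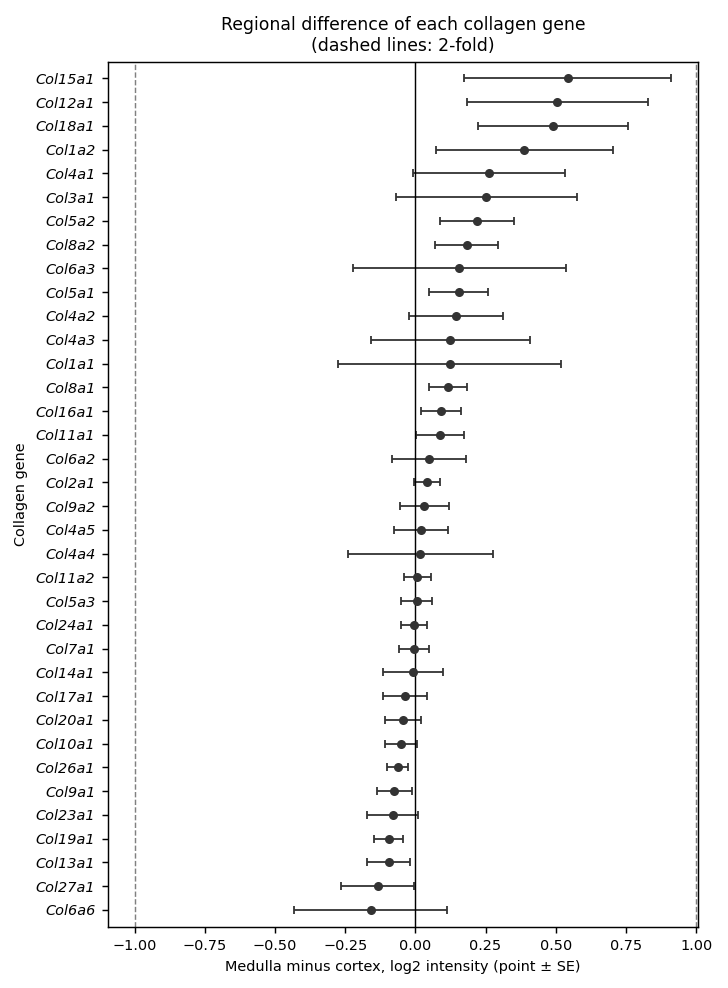
Medulla minus cortex difference of the 36 collagen genes in log2 intensity, largest at the top, with points for the difference and bars for the standard error from limma (n = 4 arrays per region); dashed lines mark 2-fold. Every point lies inside the dashed lines, between -0.16 for Col6a6 and 0.54 for Col15a1.

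The 5 members with the largest differences, Col15a1, Col12a1, Col18a1, Col1a2 and Col4a1, were all higher in medulla by mean, and none passed the test. Col15a1, a multiplexin of vascular and muscle basement membranes on probe set 17798663, measured 5.67, 5.40, 5.96 and 7.03 on medulla replicates 1 to 4 and 5.44, 5.28, 5.10 and 6.06 on cortex replicates 1 to 4. The replicate 4 array was the highest in each region, and cortex replicate 4 lay above the other 3 medulla arrays. Its means were 6.01 ± 0.71 in medulla and 5.47 ± 0.42 in cortex (SD, n = 4 each), so medulla was higher by 0.54 (SE 0.37). limma's adjusted p was 0.878 and the two-sided exact permutation p was 0.257, where 4 arrays against 4 can reach 0.0286 at the least. Without medulla replicate 4 the difference was 0.20, and without medulla replicate 2 it was 0.75.

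Col18a1, the other multiplexin and the precursor of the angiogenesis inhibitor endostatin, measured 8.05, 7.38, 7.45 and 8.29 on the medulla arrays and 7.17, 7.19, 6.96 and 7.87 on the cortex arrays. On replicates 1, 2 and 3 every medulla value was above every cortex value, but cortex replicate 4 lay above medulla replicates 2 and 3. The means were 7.79 ± 0.45 in medulla and 7.30 ± 0.39 in cortex (SD, n = 4 each), so medulla was higher by 0.49 (SE 0.27). Its exact permutation p was 0.171 and limma's adjusted p 0.876. The difference was 0.32 without medulla replicate 4 and 0.68 without cortex replicate 4.

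Col12a1, a fibril-associated collagen of dense connective tissue, measured 8.28, 7.54, 8.54 and 8.74 on the medulla arrays and 8.37, 7.76, 7.16 and 7.80 on the cortex arrays. Medulla replicate 2 lay among the cortex values and cortex replicate 1 among the medulla values. The means were 8.28 ± 0.52 in medulla and 7.77 ± 0.49 in cortex (SD, n = 4 each), so medulla was higher by 0.51 (SE 0.32), with limma's adjusted p at 0.877. Leaving out cortex replicate 3 gave 0.30, and leaving out medulla replicate 2 gave 0.75. Col1a2 differed by 0.39 with a standard error of 0.32, or by 0.17 without medulla replicate 4 and by the same 0.17 without cortex replicate 3. Col4a1 differed by 0.26 with a standard error of 0.27, or by 0.05 without medulla replicate 4, 0.11 without cortex replicate 3 and 0.46 without cortex replicate 4.

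Some cell type markers differed between the regions by mean in the same direction as these genes or against it. Of 11 markers of fibroblasts and mural cells, 10 were measured and 9 were higher in medulla by mean, with a summed intensity of 1237 to 2160 in medulla and 1060 to 1371 in cortex. The endothelial list had 5 of 8 markers measured and 4 higher in medulla by mean, summing to 1051 to 1608 in medulla and 796.4 to 1553 in cortex. The podocyte list had 5 of 7 measured and 0 higher in medulla, summing to 634.3 to 1097 in medulla and 822.6 to 1293 in cortex. None of these markers was called, and their part in the collagen values was not tested.

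The second question came from the design text, which selects genes that vary at least 2-fold within cortex and within medulla and keeps those found in both. Since the arrays behind that selection are not named, the range of a gene was taken as its highest minus its lowest log2 value among the 4 arrays of a region. Between medulla arrays, 8 of 36 collagen genes reached a 2-fold range, against 3.8% of all genes. Between cortex arrays 6 of 36 did, against 3.6%, and 4 of 36 did in both regions, against 2.21%. At least 1 region had it for 10 of 36, against 5.19%. The 4 in both were Col1a1, Col1a2, Col3a1 and Col12a1. Col6a3, Col15a1, Col4a3 and Col4a4 reached it in medulla alone, and Col4a1 and Col6a6 in cortex alone. The median range of the members was 0.39 in medulla and 0.32 in cortex, beside 0.25 and 0.21 over all genes.

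**Figure D2:**
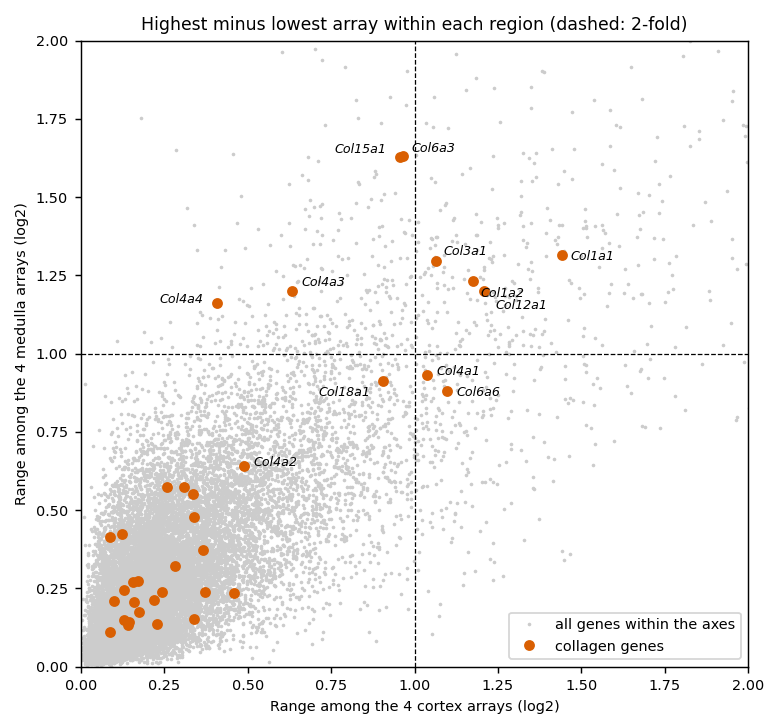
Range among the 4 medulla arrays (vertical axis) against the range among the 4 cortex arrays (horizontal axis), in log2 units, for the 36 collagen genes (orange) and for all genes that fall within the axes (grey); dashed lines mark a 2-fold range. Col1a1, Col1a2, Col3a1 and Col12a1 lie beyond both lines, and 26 collagen genes lie below both.

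These counts depended on single arrays. Without medulla replicate 4, 0 of 36 collagen genes reached 2-fold in medulla, against 0.936% of all genes, and so 0 did in both regions. Without cortex replicate 4 the same 4 genes, Col1a1, Col1a2, Col3a1 and Col12a1, kept a 2-fold range in cortex, against 0.798% of all genes. Without cortex replicate 2 the cortex count was 3 and without cortex replicate 3 it was 2, with 1 gene left in both regions each time, Col12a1 in the one case and Col1a1 in the other. Without medulla replicate 2 the count in both regions was 2. A range over 3 arrays can only be equal to or smaller than the range over 4. Close to the threshold, Col4a1 had a cortex range of 1.04, while Col6a3 and Col15a1 had cortex ranges of 0.96 each.

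The type I and III genes, which encode the main chains of interstitial fibrils, had the same highest and lowest array in each region. Col1a1, at chr10:80380458-80397461 in GRCr8 and on probe set 17650326, measured 6.52, 6.42, 7.08 and 7.73 on medulla replicates 1 to 4 and 6.41, 7.65, 6.21 and 7.00 on cortex replicates 1 to 4. Its highest medulla array was replicate 4, but its highest cortex array was replicate 2, and the regions overlapped over nearly their whole range. The range was 2.49-fold in medulla and 2.72-fold in cortex. Without medulla replicate 4 the medulla range was 0.67 log2 units against 1.32 with it, and without cortex replicate 2 the cortex range was 0.80 against 1.44. Its regional difference of 0.12 with a standard error of 0.40 was -0.14 without medulla replicate 4 and -0.08 without cortex replicate 3.

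Col1a2, which encodes the second chain of type I collagen, measured 6.99, 6.58, 7.19 and 7.82 on the medulla arrays and 6.84, 7.29, 6.11 and 6.79 on the cortex arrays. The order was that of Col1a1 at the top, with medulla replicate 4 and cortex replicate 2 highest, and at the bottom, with medulla replicate 2 and cortex replicate 3 lowest. Col3a1, the type III chain of loose connective tissue and vessel walls, measured 7.34, 7.07, 7.39 and 8.37 on the medulla arrays and 7.19, 7.82, 6.75 and 7.41 on the cortex arrays. It had the same highest and lowest arrays in both regions. On medulla replicate 4 these 3 genes were above the mean of the other 3 medulla arrays by 2.08-fold for Col1a1, 1.86-fold for Col1a2 and 2.15-fold for Col3a1. On cortex replicate 4 they stood 1.19-fold, 1.03-fold and 1.11-fold above the mean of the other 3 cortex arrays. Without medulla replicate 4 the medulla range was 0.61 for Col1a2, 0.32 for Col3a1 and 0.9989 for Col12a1, each under 2-fold, against 1.23, 1.30 and 1.20 with it.

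Other fibrillar genes varied less. Col5a1 and Col5a2, whose chains help to start type I fibrils, were highest on medulla replicate 4 as well, at 6.28 and 6.16. Their medulla ranges were 0.37 and 0.58 and their cortex ranges 0.36 and 0.26. The 2 probe sets of Col5a1 disagreed on the regions. The one used here averaged 6.06 in medulla and 5.90 in cortex, a difference of 0.15, and the other averaged 5.65 in medulla and 5.79 in cortex, a difference of -0.14, so the sign counted for Col5a1 depends on the probe set. Col27a1, a fibrillar gene of cartilage, had its lowest medulla value on replicate 4, at 5.77, against 5.97 to 6.34 on the other medulla arrays. Col2a1, the main cartilage collagen, ranged over 0.13 in medulla and 0.14 in cortex, and Col24a1 over 0.15 and 0.13.

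**Figure D3:**
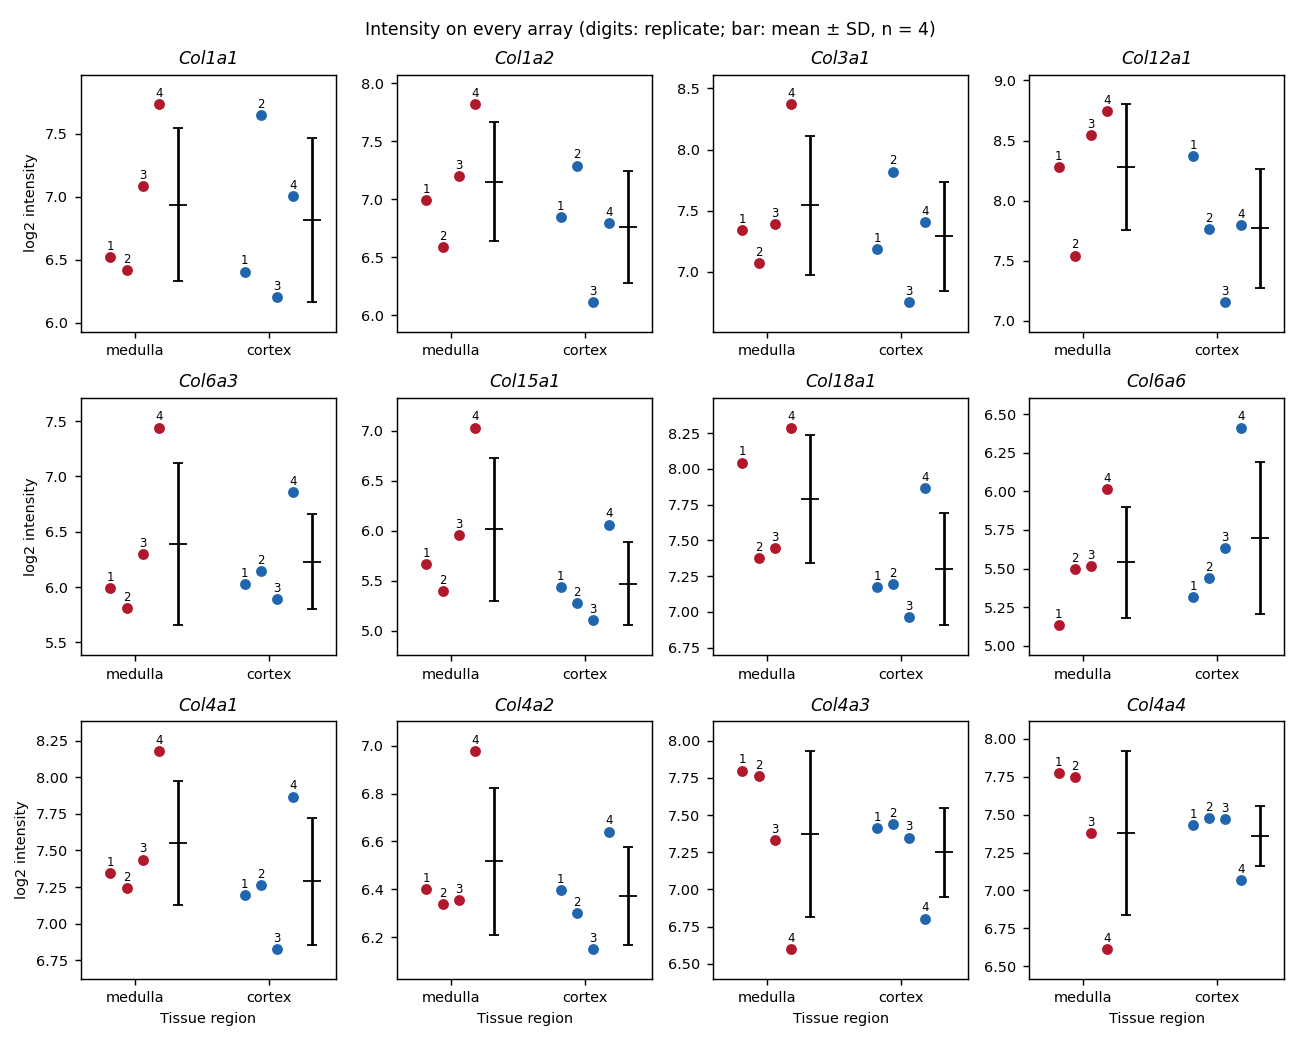
Log2 intensity of 12 collagen genes on each array, with medulla in red at left and cortex in blue at right, digits for the replicate number, and bars for the mean and SD of each region (n = 4); each panel has its own vertical scale. Col1a1, Col1a2 and Col3a1 are highest on medulla replicate 4 and cortex replicate 2, while Col4a1 and Col4a2 are highest, and Col4a3 and Col4a4 lowest, on both replicate 4 arrays.

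The type IV genes split by pair. Col4a1, on probe set 17709399, measured 7.35, 7.25, 7.44 and 8.18 on the medulla arrays and 7.19, 7.26, 6.83 and 7.87 on the cortex arrays. Its partner across the 76-base spacer, Col4a2, on probe set 17713164, measured 6.40, 6.34, 6.35 and 6.98 on the medulla arrays and 6.40, 6.30, 6.15 and 6.64 on the cortex arrays. Both genes were highest on replicate 4 of each region and lowest on medulla replicate 2 and cortex replicate 3. Against the mean of the other 3 arrays, replicate 4 was higher by 1.78-fold in medulla and 1.71-fold in cortex for Col4a1, and by 1.53-fold and 1.28-fold for Col4a2. Without replicate 4 the range of Col4a1 was 0.19 in medulla and 0.44 in cortex, against 0.93 and 1.04 with it, and that of Col4a2 was 0.063 and 0.25, against 0.64 and 0.49.

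Col4a3, on probe set 17860832, measured 7.80, 7.76, 7.33 and 6.60 on the medulla arrays and 7.41, 7.44, 7.35 and 6.80 on the cortex arrays. Col4a4, its partner on probe set 17865969, measured 7.78, 7.75, 7.38 and 6.61 on the medulla arrays and 7.43, 7.48, 7.47 and 7.07 on the cortex arrays. Both were lowest on replicate 4 in each region, and in medulla both were also lower on replicate 3 than on replicates 1 and 2. Replicate 4 was lower than the mean of the other 3 arrays by 2.04-fold in medulla and 1.51-fold in cortex for Col4a3, and by 2.03-fold and 1.31-fold for Col4a4. Without replicate 4 the ranges of Col4a3 were 0.47 in medulla and 0.09 in cortex, and those of Col4a4 were 0.40 and 0.05. Col4a5, whose chain joins those of Col4a3 and Col4a4 in the mature network, measured 6.34, 6.30, 6.01 and 5.92 on the medulla arrays and 6.15, 6.07, 6.16 and 6.10 on the cortex arrays. Its lowest medulla array was replicate 4 too, but its cortex arrays spanned only 0.09.

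Leaving out a single array turned the sign of the regional difference of Col4a3, Col4a4 and Col4a5. With all arrays it was 0.12, 0.02 and 0.02, with standard errors of 0.28, 0.26 and 0.10. Without medulla replicate 1 it was -0.02, -0.11 and -0.05.

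Markers of cells that make type IV collagen were set beside these values. The mean deviation of a list is the average, over its genes, of the deviation of an array's log2 value from its region's mean. For the 5 podocyte markers measured it was -0.24, 0.48, -0.03 and -0.21 on medulla replicates 1 to 4 and -0.40, 0.10, 0.33 and -0.03 on cortex replicates 1 to 4. In cortex its lowest value was on replicate 1, and in medulla replicates 1 and 4 were close. The summed intensity of these markers was lowest on medulla replicate 4, at 634.3, and on cortex replicate 1, at 822.6. Of the 5 markers, 2, Podxl and Clic5, were lowest on medulla replicate 4, beside 28.1% of all genes. Clic5 alone was lowest on both replicate 4 arrays, as Col4a3 and Col4a4 were, beside 16.0% of all genes. Nphs1 and Ptpro were lowest on medulla replicate 1, and Wt1 on medulla replicate 3. In cortex, Nphs1, Podxl, Wt1 and Ptpro were lowest on replicate 1. The mean deviation of the 6 thick ascending limb markers was lowest on replicate 4 in both regions, at -0.76 in medulla and -1.09 in cortex. That of the 6 collecting duct markers was lowest there too, at -0.62 and -0.48. Gene by gene, 5 of the 6 thick ascending limb markers and 3 of the 6 collecting duct markers were lowest on both replicate 4 arrays, beside 16.0% of all genes. Thick ascending limb markers summed to 3674 intensity units on medulla replicate 4, against 7179 to 8567 on the other medulla arrays, and to 3040 on cortex replicate 4, while cortex replicates 1 to 3 gave 7368 to 8914. The part of these cells in the type IV values was not tested.

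Type VI and multiplexin genes were highest on both replicate 4 arrays. Col6a3, the large chain of the type VI filament, at chr9:98809171-98887060 in GRCr8, measured 5.99, 5.81, 6.30 and 7.44 on the medulla arrays and 6.03, 6.14, 5.89 and 6.86 on the cortex arrays. Its range was 3.10-fold in medulla and 1.95-fold in cortex, and without replicate 4 it was 0.49 and 0.25 log2 units against 1.63 and 0.96 with it. Its regional difference was 0.16 with a standard error of 0.38, and -0.20 without medulla replicate 4. Col6a2 measured 6.27, 6.05, 6.01 and 6.57 on the medulla arrays and 6.14, 6.16, 6.04 and 6.38 on the cortex arrays, the same highest arrays with smaller ranges of 0.55 and 0.34.

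Col6a6, a further type VI chain, measured 5.13, 5.50, 5.52 and 6.01 on the medulla arrays and 5.31, 5.44, 5.63 and 6.41 on the cortex arrays. Its lowest array was replicate 1 in each region, unlike that of Col6a3. Its range was 0.88 in medulla and 1.10 in cortex, or 0.39 and 0.32 without replicate 4. Among the multiplexins, the range of Col15a1 was 1.63 in medulla and 0.96 in cortex, or 0.56 and 0.33 without replicate 4. Col18a1 had a range of 0.91 in each region, or 0.67 in medulla and 0.23 in cortex without it.

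Counted over all members, medulla replicate 4 was the highest medulla array for 19 of 36 genes, against 27.1% of all genes, and the lowest for 5, against 28.1%. Cortex replicate 4 was the highest cortex array for 10 of 36, against 32.1%, and the lowest for 9, against 31.6%. Both at once were highest for 8 members, near the 17.0% of all genes, namely Col4a1, Col4a2, Col6a2, Col6a3, Col6a6, Col11a2, Col15a1 and Col18a1. Both were lowest for 3, Col4a3, Col4a4 and Col10a1, against 16.0% of all genes. These counts ignore the size of a gap. Col11a2 measured 5.4435 on medulla replicate 4 and 5.442 on medulla replicate 1. Col10a1, under the array median on all 8 arrays, had a medulla range of only 0.14. Medulla replicate 3 was highest for 0 members, against 24.5% of all genes.

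**Figure D4:**
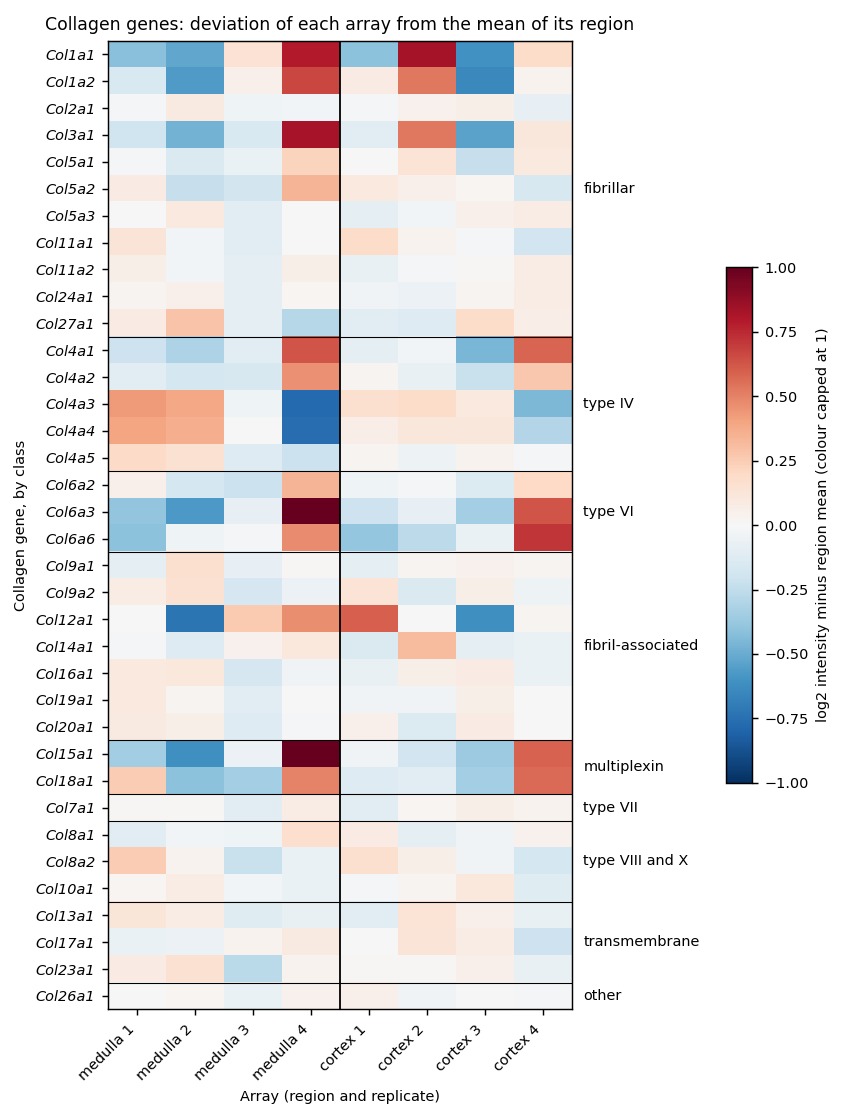
Log2 intensity of each of the 36 collagen genes (rows, by class) on each array (columns, medulla left and cortex right) minus the mean of its region, from blue for lower to red for higher, with colours capped at 1 log2 unit. The strongest colours are in Col1a1, Col1a2, Col3a1, Col12a1, the type IV pairs, Col6a3, Col6a6, Col15a1 and Col18a1, and most other rows are pale.

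The other 22 members ranged over 0.11 to 0.58 log2 units in medulla and 0.09 to 0.46 in cortex, with regional differences of -0.13 to 0.22. Among the fibril-associated genes, Col14a1, a collagen of fibril surfaces in soft tissue, was highest in cortex on replicate 2, at 5.28, with 4.82 to 4.90 elsewhere in cortex, as were Col1a1, Col1a2 and Col3a1. In medulla it measured 4.83 to 5.06. Col8a2, of the type VIII network known from the cornea, measured 5.54 to 6.01 in medulla and 5.40 to 5.74 in cortex. Col17a1, of epithelial hemidesmosomes, measured 5.52 to 5.67 in medulla and 5.42 to 5.76 in cortex, and Col23a1, another transmembrane collagen, 5.53 to 5.95 and 5.80 to 5.93. Signal was low for part of the family: Col10a1, Col19a1, Col20a1 and Col26a1 lay under the median of all probe sets on all 8 arrays, and 9 more members did so on at least 1. For such genes the array signal limits any difference that could be seen.

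Genes that act on or with collagen were described in the same way, and none was called in the regional test. Of 29 genes for collagen synthesis and processing, 27 were measured and 16 were higher in medulla by mean, with a median difference of 0.04, and 3 passed an unadjusted p under 0.05, all higher, beside the 2.77% of all genes. Among them Plod2, a lysyl hydroxylase that prepares collagen for cross-linking, chosen after its values were seen, measured 7.72, 7.67, 8.32 and 7.91 on the medulla arrays and 7.85, 7.25, 6.59 and 6.63 on the cortex arrays. Only cortex replicate 1 lay among the medulla values, and Plod2 differed by 0.82 with a standard error of 0.30 and limma's adjusted p of 0.875. It was the 1 gene of the list with a 2-fold range, in cortex. By array, 12 of the 27 genes were highest on both replicate 4 arrays, beside 17.0% of all genes. On both, 1 gene was lowest, beside 16.0%, and Plod2 belonged to neither group. Of 10 collagen receptor genes, 9 were measured and 6 were higher by mean, and 1 passed the unadjusted p as higher, beside 2.77% of all genes. That gene, the integrin subunit gene Itga2, also chosen after its values were seen, measured 6.47, 5.36, 6.76 and 6.63 on the medulla arrays and 5.53, 5.24, 5.06 and 5.95 on the cortex arrays.

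Basement membrane partners had 12 of 15 genes measured, and 12 of 12 were higher in medulla by mean, with a median difference of 0.24 against -0.01 over all genes. At an unadjusted p under 0.05, 3 of them passed as higher, beside 2.77% of all genes, and 0 were called. Agrn, which encodes the proteoglycan agrin and was chosen after its values were seen, measured 7.59, 7.25, 7.29 and 7.84 on the medulla arrays and 6.99, 6.96, 6.86 and 7.32 on the cortex arrays. It differed by 0.46 with a standard error of 0.15 and limma's adjusted p of 0.875. Cortex replicate 4 lay above medulla replicates 2 and 3. Lamb2, whose laminin chain pairs with the mature type IV network in the glomerulus, was likewise chosen after its values were seen. It measured 7.84, 7.53, 7.03 and 6.73 on the medulla arrays and 7.40, 7.21, 6.91 and 6.59 on the cortex arrays, and was lowest on replicate 4 in each region. The list held both patterns: 5 of 12 genes, Lama1, Lama5, Lamb3, Lamc1 and Agrn, were highest on both replicate 4 arrays, beside 17.0% of all genes, and 3, Lama2, Lamb2 and Lamc3, were lowest on both, beside 16.0%.

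Among collagen-binding proteoglycans and fibril partners, 11 of 14 were measured, 8 were higher in medulla by mean, and 6 had a 2-fold range in both regions, beside 2.21% of all genes. Without the replicate 4 arrays 3 did, Dcn, Fn1 and Fbn1. The 6 were Fn1, Ogn, Prelp, Dcn, Bgn and Fbn1, and they did not share 1 pattern. Fn1, the fibronectin gene, measured 8.79, 7.77, 8.995 and 9.69 on the medulla arrays and 8.45, 7.93, 7.06 and 8.71 on the cortex arrays, highest on replicate 4 in each region. Ogn, which encodes the small proteoglycan osteoglycin, measured 8.28, 8.03, 8.82 and 7.06 on the medulla arrays and 8.86, 8.37, 7.54 and 6.67 on the cortex arrays, lowest on replicate 4 in each. Prelp, a related proteoglycan gene, was lowest there too, at 6.39 in medulla and 5.67 in cortex. Dcn, which encodes decorin, a regulator of fibril width, was lowest on cortex replicate 4, at 7.95, but on medulla replicate 2, at 8.25. Fbn1, which encodes the microfibril protein fibrillin and was chosen after its values were seen, measured 6.81, 6.27, 7.30 and 7.54 on the medulla arrays and 6.64, 7.08, 5.73 and 6.41 on the cortex arrays. Its highest and lowest arrays were those of Col1a1, Col1a2 and Col3a1 in both regions. Bgn, the gene of the proteoglycan biglycan, was highest on medulla replicate 4, at 10.68, and on cortex replicate 1, at 10.07.

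Of the TGF-beta and profibrotic list 11 of 15 were measured, with 6 higher in medulla by mean and 0 at an unadjusted p under 0.05. Most of this list was highest on both replicate 4 arrays: 8 of 11 genes were, beside 17.0% of all genes, namely Tgfb1, Tgfb2, Tgfb3, Tgfbr1, Smad2, Smad3, Ccn2 and Pdgfb. Tgfb1, the growth factor gene that gives the axis its name, was picked with its values known. It measured 6.66, 6.46, 6.66 and 7.37 on the medulla arrays and 6.60, 6.38, 6.00 and 6.87 on the cortex arrays. The mean deviation of the list was highest on replicate 4 in each region, at 0.17 in medulla and 0.15 in cortex. Pdgfa, another growth factor gene, was the 1 with a 2-fold range in both regions, at 7.48, 7.02, 6.89 and 6.43 on the medulla arrays and 7.43, 6.84, 6.29 and 6.37 on the cortex arrays. It was highest on replicate 1 in each region, and its medulla range of 1.05 was 0.59 without replicate 4. All 8 collagenase and gelatinase genes were measured, with 6 higher in medulla by mean and 1 at an unadjusted p under 0.05. Of all genes, 2.77% passed that p as higher and 2.58% as lower. Mmp15, a membrane-bound metalloproteinase gene, had a 2-fold range in both regions and measured 7.69, 7.59, 6.42 and 6.11 on the medulla arrays and 7.69, 7.15, 6.88 and 6.09 on the cortex arrays. It was lowest on replicate 4 in each, and its cortex range of 1.60 was 0.81 without that array.

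**Figure D5:**
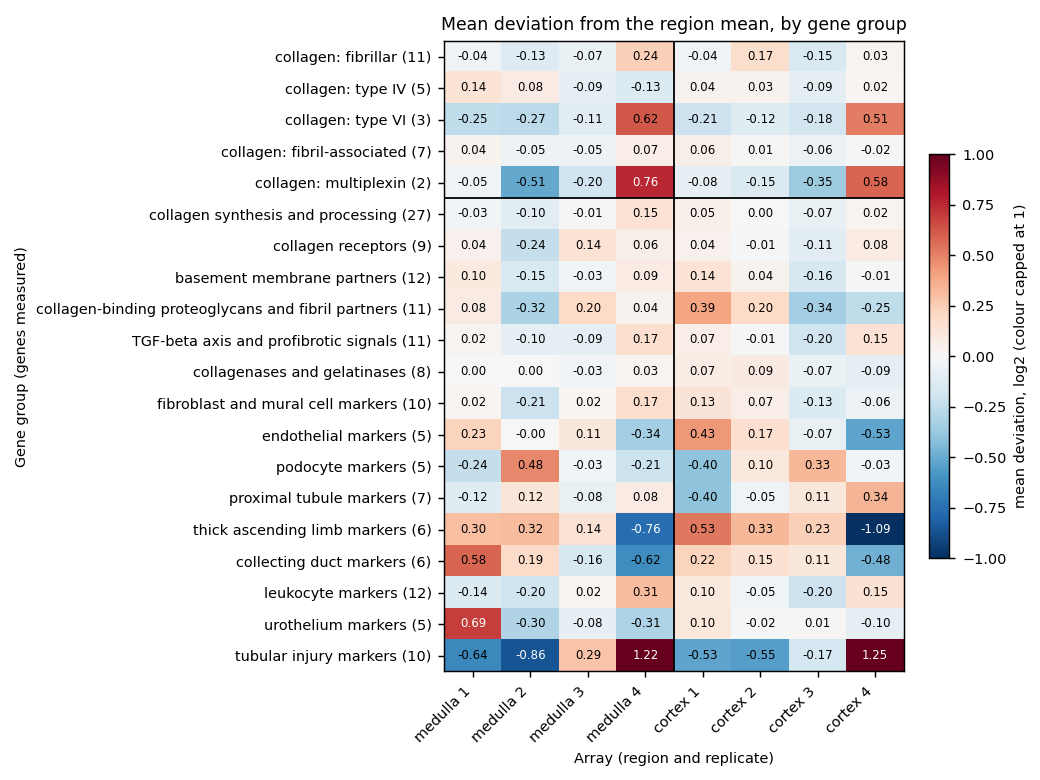
Mean deviation from the region mean, in log2 units, of 5 collagen classes (above the line) and 15 gene lists (below it) on each array, medulla left and cortex right, with the number of genes measured in brackets. Multiplexin and type VI collagens stand at 0.76 and 0.62 on medulla replicate 4 and at 0.58 and 0.51 on cortex replicate 4, fibrillar collagens at 0.24 and 0.03, and tubular injury markers at 1.22 and 1.25.

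Stromal and leukocyte markers were set beside the collagen values by array. The mean deviation of the 10 fibroblast and mural cell markers was 0.02, -0.21, 0.02 and 0.17 on medulla replicates 1 to 4 and 0.13, 0.07, -0.13 and -0.06 on cortex replicates 1 to 4. It was highest on medulla replicate 4, as in 19 of the collagen genes, but on cortex replicate 1 and not on replicate 2 or 4. The receptor gene Pdgfra measured 7.78, 6.71, 8.54 and 8.06 on the medulla arrays and 7.62, 7.09, 6.56 and 7.20 on the cortex arrays, highest on medulla replicate 3 and cortex replicate 1. Of the 10 markers, 3 were highest on both replicate 4 arrays, beside 17.0% of all genes. These were the smooth muscle gene Tagln, at 8.68 in medulla and 7.82 in cortex, and the filament genes Vim, at 9.73 and 8.63, and Des, at 6.46 and 6.25, so that they shared their highest arrays with Col4a1, Col6a3 and Col15a1. Rgs5, of pericytes, was lowest on both, at 6.90 and 6.10. The 12 leukocyte markers had their highest mean deviation on replicate 4 in both regions, at 0.31 in medulla and 0.15 in cortex, and summed to 2002 to 2935 in medulla and 1962 to 2552 in cortex. The 5 endothelial markers measured had their lowest there, at -0.34 and -0.53. On replicate 4, the 7 proximal tubule markers had a mean deviation of 0.08 in medulla and 0.34 in cortex, and the 5 urothelium markers measured had -0.31 and -0.10. The proximal tubule markers did not move together. Of the 7, 3 were highest on both replicate 4 arrays, beside 17.0% of all genes, and 2 were lowest on both, beside 16.0%. The part of these markers in the collagen ranges was not tested.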

How the data were processed

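RNA of 4 medulla and 4 cortex samples of rat kidney was hybridised to Affymetrix whole-transcript arrays. The authors deposited 1 table of linear intensity per probe set. Per the submitters' processing notes, it came from RMA in Affymetrix Expression Console, with no version given in the sources used. Values ran from 17.3 to 6229 and were logged (log2) with no pseudocount or further normalization. Of 29870 probe sets, 18511 had 1 gene symbol, 575 several and 10784 are unnamed here. For each of 18166 genes the probe set with the highest mean was kept. At most 1 value was identical between any 2 arrays. The regional test was limma 3.58.1 (lmFit and eBayes under R 4.3.3, Benjamini-Hochberg over all genes), called at an adjusted p of 0.05 and 2-fold, and single values with an exact permutation test over 70 arrangements. The pipeline was tested on simulated data. Figures used matplotlib 3.10.9.

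Values on every array are given for Col1a1, Col1a2, Col3a1, the type IV genes, Col6a2, Col6a3, Col15a1 and Col18a1, for members with a 2-fold range in a region, and for the 5 largest regional differences. From each list, up to 4 genes with a 2-fold range in both regions qualified by rule. For the lists of genes that act on or with collagen and the fibroblast list, all that qualified are named. For the tubule, leukocyte and tubular injury lists, only Umod, Slc14a2 and Havcr1 are named, picked from those that qualified. Other list genes named above fell outside this rule and were picked with their values known. Among them were Tgfb1, Bgn, Tagln, Vim, Des, Rgs5 and the podocyte markers. The members, the 15 lists and these rules were chosen with earlier results of these data known. Alternatives were quantile normalization, centring on the median, averaging all probe sets of a gene, a trended robust prior, array weights, dropping genes in the lowest 30% of mean signal, other thresholds, and each array left out in turn. Leaving out both replicate 4 arrays was added after the data were seen. Promoter sequences are from RefSeq, build GRCr8.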

Additional observations from a re-analysis of the deposited data

Results flagged for a closer look

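In each region, the gap between the highest or lowest array and its nearest neighbour was compared with the whole range for the 36 collagen genes. Of these 72 groups of 4 arrays, 4 had an array farther from the others than Dixon's test allows at the 95% level, and chance gives about 1 in 20. On medulla replicate 4, Col4a2 measured 6.98, against 6.34 to 6.40 on the other medulla arrays. Cortex replicate 4 gave 6.80 for Col4a3, while the remaining cortex values lay between 7.35 and 7.44, and 7.07 for Col4a4, while the remaining values lay between 7.43 and 7.48. Cortex replicate 1 gave 5.07 for Col9a1, a fibril-associated cartilage gene, while the remaining values lay between 5.18 and 5.20.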

How the results depend on the processing

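The regional test called 0 genes, 0 of them collagen genes, under all normalizations, priors, filters and left-out arrays tried. At an unadjusted p with no fold threshold it passed 971 genes and 0 collagen genes. The count of collagen genes with a 2-fold range stood at 8 in medulla, 6 in cortex and 4 in both regions under quantile normalization, median centring, the mean of probe sets and the filter on dim genes. Of these settings, averaging probe sets could change only Col5a1, and the filter could only remove genes. With a 1.5-fold range the count was 12, 10 and 10, and with a 3-fold range 2, 0 and 0. With 1 array of the region left out it lay between 0 and 8 in medulla, 2 and 4 in cortex and 0 and 4 in both, and without both replicate 4 arrays it was 0 in medulla, 4 in cortex and 0 in both. The median difference of the members was between -0.010 and 0.068 with 1 array left out, negative without medulla replicate 4. Of 70 differences of the 14 named genes under other settings, 69 kept their sign and 1 turned, that of Col1a1, at -0.19 with array weights, and the cause was not tested. Averaging probe sets and the trended robust prior could not change any of these differences, and median centring shifted every gene alike. The count of kept signs therefore says little about stability. With 1 array left out, 16 of 112 turned, in 9 genes, with Col1a1 between -0.14 and 0.40, Col3a1 between -0.023 and 0.43, Col4a2 between -0.0088 and 0.23, Col4a3 between -0.026 and 0.38, Col4a4 between -0.11 and 0.27, Col4a5 between -0.045 and 0.092, Col6a2 between -0.066 and 0.12, Col6a3 between -0.20 and 0.36 and Col6a6 between -0.32 and 0.078. No paired analysis was possible because the labels give the regions no replicate number in common and do not say which arrays share an animal. If some do, the unpaired fit counts variation shared by their arrays as scatter. The 0 calls do not show that the regions are alike.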
